A study of Homo sapiens with 12 samples.

Results

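The homologous recombination and BRCA1 complex genes are 40 named genes whose products find a broken DNA end, trim it, coat it, pair it with an intact copy and take the joined molecules apart again. They were taken by symbol, and 32 of the 40 had a probe detected on at least 3 of the 12 arrays, against 9409 genes with such a probe on the whole array. All 32 were detected on 12 of 12 arrays. BRCA2, BRIP1, ABRAXAS1, RNF168, RAD50, RBBP8, RAD52 and GEN1 had no named detected probe and were not analysed here. The arrays measured cytoplasmic RNA of Cal51, a breast carcinoma cell line, taken through permeabilisation of the plasma membrane with digitonin 72 hours after siRNA transfection. The 4 groups of 3 arrays were IPMK siRNA with mitomycin C (siIPMK with MMC), control siRNA with MMC, IPMK siRNA without MMC and control siRNA without MMC. IPMK is the inositol polyphosphate multikinase, and MMC, which crosslinks the strands of DNA, was present for the last 24 hours in the treated groups; its dose is not given in the sources used here. All groups are transfected cells of the same line, and no label says that experiments 1 to 3 were separate cultures, so the p-values measure the spread between these arrays, which may be technical.

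Homologous recombination repairs double-strand breaks, and the breaks left when a replication fork meets a crosslink, by copying the sister chromatid. BRCA1 and its partner BARD1 promote the trimming of the ends, replication protein A covers the single strand that trimming exposes, and BRCA2, brought in through PALB2, replaces it with the strand-exchange recombinase. Helicases, topoisomerases and nucleases then separate the joined chromosomes. Most of these genes are expressed most in the S and G2 phases of the cell cycle.

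Each probe was read by a median of 20 or 21 beads, and arrays detected 12122 to 13458 probes, with more on every siIPMK array than on any control array. On the first principal component of all genes, which held 67.5% of the variance, both siIPMK arrays of experiment 1 stood apart. They lay at 11.97 with MMC and 6.64 without, between the other siIPMK arrays, at 32.2 to 38.4, and the control arrays, at -30.4 to -22.7. IPMK has no named probe, which leaves its level unread. CDKN1A, the p21 cell cycle inhibitor that DNA damage induces, was 3.92-fold higher with MMC than without under control siRNA and 1.91-fold higher under siIPMK. A dimmer CDKN1A probe read, in log2, 8.32, 8.16 and 8.27 on siIPMK arrays with MMC, against 6.42, 7.06 and 7.02 without. On control arrays that probe read 6.45, 6.40 and 6.64 with MMC, against 4.96, 5.24 and 5.60 without. Which siRNA shows the larger change with MMC therefore depends on the probe. Of the epithelial keratin and adhesion markers KRT8, KRT18, KRT19, EPCAM and CD24 were detected, and CDH1, CLDN4 and CLDN7 had no named detected probe. Of the 6 leukocyte markers CD68 alone had a named detected probe. Of the fibroblast collagen markers, COL1A2 read 9.72 to 10.50 in log2 on its brighter probe, and COL1A1 read 5.25 to 6.51. Values below are log2 intensities after background correction and quantile normalization, and each change is given with its standard error from a linear model (limma) of all 12 arrays.

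More recombination genes were called lower than higher in siIPMK cells in both conditions. With MMC, 17 of the 32 members were lower and 2 higher at an adjusted p under 0.05, where 20.4% of all genes tested were called lower and 20.8% higher. Without MMC, 16 members were lower and 0 higher, where 19.9% of all genes were called lower and 20.4% higher. An unadjusted p under 0.05 was reached without MMC by 18 of the 32 members and by 4727 of the 9409 genes tested. The median change of the members was -0.44 with MMC and -0.35 without, beside medians over all genes of 0.01 and 0.00. Changes of the members ran from -1.40 to 0.36 with MMC and from -1.12 to 0.34 without. Every siIPMK array lay below every control array for 18 members with MMC, where 24.6% of all genes did so, and for 16 members without MMC, where 26.4% of all genes did so. The reverse held for 2 members in each condition, where 24.7% of all genes did so with MMC and 25.7% without.

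The 14 members called lower in both conditions were BRCA1, BARD1, UIMC1, EXO1, DNA2, RPA1, RAD51AP1, XRCC3, RAD54B, FIGNL1, BLM, WRN, RMI2 and EME1. MRE11, RPA3 and RAD51C were called lower with MMC and not without it, and RAD54L and RMI1 without it and not with it. None of these 5 differed between the conditions in the test of that difference (limma adjusted p = 0.999 for each), so the calls do not show that MMC altered the effect. The 11 members called lower in neither condition and not called higher were PALB2, BRCC3, RNF8, TP53BP1, RPA2, RAD51D, XRCC2, RECQL, TOP3A, MUS81 and SLX4. Because the arrays read bulk cytoplasmic RNA, fewer cells with a transcript, less of it per cell and less of it in the cytoplasm alone cannot be told apart. When the arrays were scaled to a common median in place of quantile normalization, the median of all genes moved to 0.14 with MMC and 0.13 without, and the members' medians were -0.32 and -0.22. In that fit 10 members were called lower and 2 higher with MMC, where 11.6% of all genes were called lower and 26.4% higher. Without MMC 5 were called lower and 1 higher, where 11.3% of all genes were called lower and 26% higher, so that the 5 of 32 lie near the share over all genes. Those 5 were EXO1, DNA2, RPA1, XRCC3 and RMI2. The 10 with MMC were the same genes with BRCA1, BARD1, RPA3, RAD54B and EME1. Among the changes called in the main fit, those that shrank by over 1.5 times with that scaling were MRE11 (-0.27) and WRN (-0.32) with MMC and FIGNL1 (-0.27), BLM (-0.28) and WRN (-0.21) without. Uncalled changes were not screened in this way. Without MMC, 22 of the 32 members and 39.8% of all genes lay below 0 with that scaling, against 28 and 50.0% in the main fit. With MMC, 25 members and 38.7% of all genes did so, against 26 and 49.2%. Without MMC the count called lower was 10 when siIPMK array 2 was left out, 9 without siIPMK array 3, 10 without control array 2 and 9 without control array 3. The share of all genes called lower in those 4 fits was also smaller, at 13.1%, 13.5%, 15.6% and 14.9%.

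**Figure D1:**
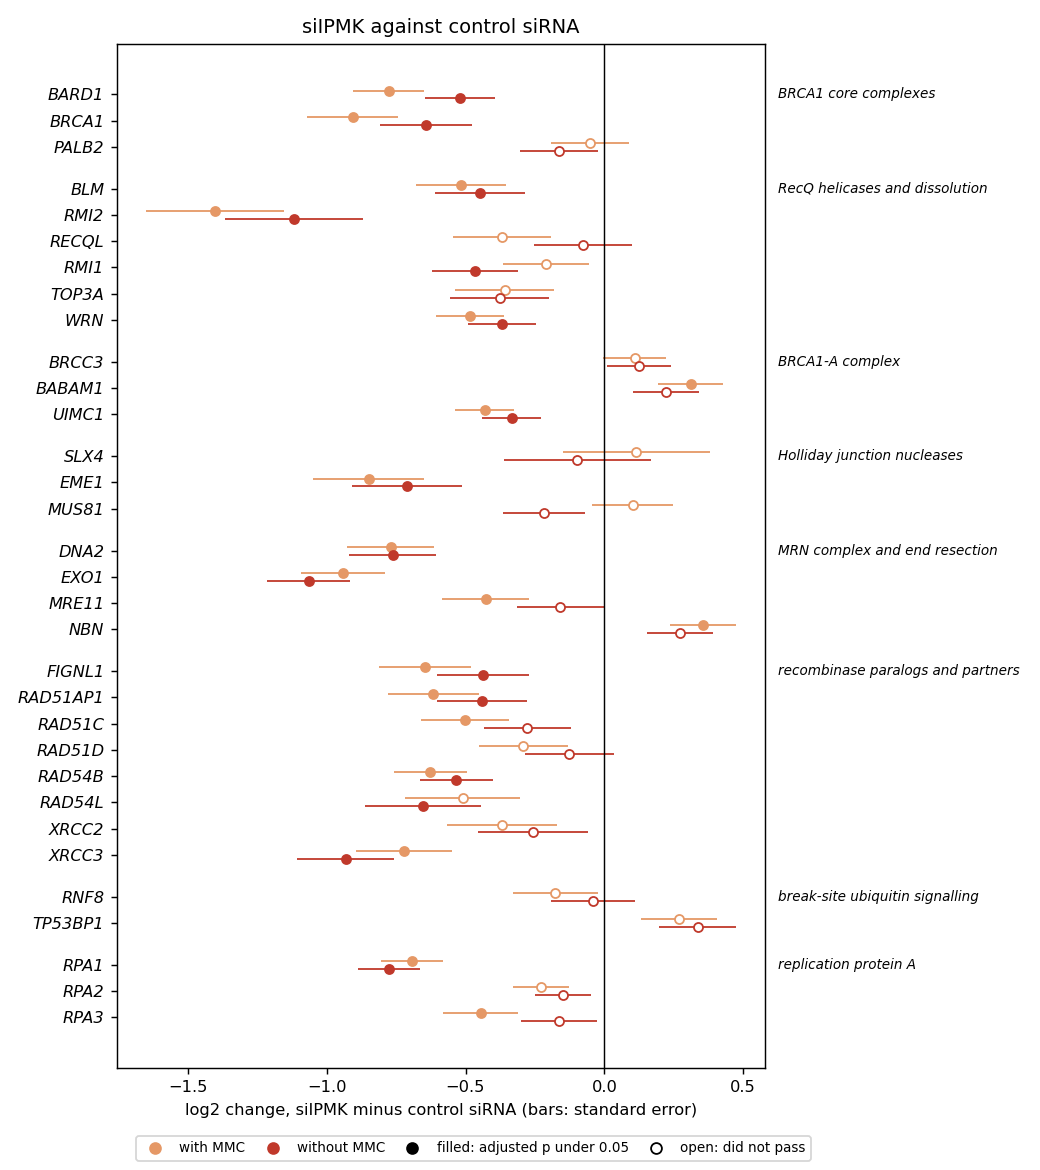
Change of each of the 32 detected members with siIPMK against control siRNA (log2, x axis), grouped by role, with MMC above and without MMC below in each pair; bars are standard errors of the fit and filled points passed the adjusted p of 0.05. Most points lie left of 0, with RMI2 and EXO1 among those farthest from it, and NBN, BABAM1, TP53BP1 and BRCC3 lie right of it in both conditions.

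Promoter letters were read because many members fell together. The promoter windows of RefSeq (GRCh38.p14), 250 bases before to 50 after each annotated start, were held for 25 of the 32 detected members, in 33 windows. Both strands were searched for CCAAT, the box read by NF-Y, for TTTGGCGC, TTTCCCGC, TTTCGCGC and TTTGCCGC, which resemble E2F sites, and for TTTGAA and TTCGAA, the letters of the cell cycle homology region. Each motif was counted on its own, so a window could hold several. CCAAT stood in 42.9% of the 21 windows of members that fell, in 50.0% of the 12 windows of the other detected members and in 36.0% of the 11407 windows of all genes tested. An E2F-like run stood in 3 of the 33 windows, 9.09%, against 5.04% of all, and a cell cycle homology region in 0 of the 33, against 11.9% of all. The stretches printed here show the boxes in members that fell (BRCA1, XRCC3, RPA1 and BLM), an E2F-like run in EXO1, a stretch of BARD1 with none of the motifs, and TP53BP1, which has a CCAAT box and was not called. Each is read along the gene's strand with the motif in capitals, ATTGG being CCAAT on the opposite strand. They lie at chr17:43125505-43125554 (minus strand) for BRCA1, chr14:103715452-103715551 (minus) for XRCC3, chr17:1829905-1830004 (plus) for RPA1, chr15:90717196-90717345 (plus) for BLM, chr1:241848189-241848218 (plus) for EXO1, chr2:214809684-214809783 (minus) for BARD1 and chr15:43510641-43510740 (minus) for TP53BP1.
BRCA1: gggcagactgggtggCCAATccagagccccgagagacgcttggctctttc
XRCC3: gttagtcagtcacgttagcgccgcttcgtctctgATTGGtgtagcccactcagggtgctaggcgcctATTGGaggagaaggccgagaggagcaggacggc
RPA1: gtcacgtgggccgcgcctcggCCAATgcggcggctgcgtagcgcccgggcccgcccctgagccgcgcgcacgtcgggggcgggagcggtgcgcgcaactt
BLM: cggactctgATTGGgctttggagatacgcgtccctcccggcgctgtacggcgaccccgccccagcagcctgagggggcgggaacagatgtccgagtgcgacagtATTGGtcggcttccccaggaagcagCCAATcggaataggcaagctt
EXO1: gcaaattgaaaggtcagccTTTCGCGCgct
BARD1: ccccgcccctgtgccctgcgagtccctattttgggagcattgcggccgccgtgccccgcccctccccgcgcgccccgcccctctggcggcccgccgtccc
TP53BP1: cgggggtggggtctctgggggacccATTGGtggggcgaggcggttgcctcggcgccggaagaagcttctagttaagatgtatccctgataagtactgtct

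In the BRCA1 core, both subunits of the ubiquitin ligase were lower and their bridge to BRCA2 was not called. BRCA1, the scaffold and ligase subunit, read 8.27, 8.22 and 8.08 on siIPMK arrays with MMC, against 8.85, 9.12 and 9.33 on control arrays with MMC. Without MMC it read 8.62, 8.01 and 8.45 on siIPMK arrays, against 8.90, 9.18 and 8.92 on control arrays. No siIPMK array reached a control array in either condition. The change was -0.91 ± 0.16 with MMC (limma adjusted p = 0.000884), a 1.87-fold lower level, and -0.64 ± 0.16 without (limma adjusted p = 0.00724), a 1.56-fold lower level. Another BRCA1 probe gave -0.93 and -0.85. BARD1, the partner that stabilises BRCA1, read 9.21, 9.12 and 9.37 on siIPMK arrays with MMC, against 9.88, 10.14 and 10.02 on control arrays with MMC. Its levels without MMC were 9.51, 9.22 and 9.59 on siIPMK arrays, against 9.89, 9.91 and 10.09 on control arrays, again with no overlap. BARD1 changed by -0.78 ± 0.13 with MMC (limma adjusted p = 0.000446) and -0.52 ± 0.13 without (limma adjusted p = 0.00534). With median scaling the calls without MMC were lost for both genes, at adjusted p = 0.0648 for BRCA1 and 0.0641 for BARD1. PALB2 differed by -0.05 ± 0.14 and -0.16 ± 0.14, and its groups overlapped.

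The BRCA1-A complex, which binds ubiquitin chains at breaks and restrains resection, held calls in both directions. UIMC1, its ubiquitin-binding subunit RAP80, was called lower in both conditions, with changes of -0.43 ± 0.11 with MMC and -0.33 ± 0.11 without (limma adjusted p = 0.00547 and 0.0221). Both UIMC1 calls were lost with median scaling. The UIMC1 call without MMC was lost without siIPMK array 3 or control array 1 or 3. BABAM1, the subunit MERIT40, was called higher with MMC at 0.31 ± 0.12 (limma adjusted p = 0.0481) and not without it, at 0.22 ± 0.12, where it was called at 0.34 once siIPMK array 1 of the untreated cells was left out. The call with MMC was lost in 10 of 12 fits with an array left out, all but those without a siIPMK array of experiment 1, and another BABAM1 probe gave 0.00 and 0.13. BRCC3, the deubiquitinase of the complex, differed by 0.11 ± 0.11 and 0.12 ± 0.11. Of the genes that signal from the break, RNF8, a ubiquitin ligase, differed by -0.18 ± 0.15 with MMC and -0.04 ± 0.15 without. TP53BP1, which protects ends from trimming, differed by 0.27 ± 0.14 and 0.34 ± 0.14 (limma adjusted p = 0.132 and 0.0651). Without siIPMK array 1 with MMC, RNF8 with MMC was called lower at -0.36 and TP53BP1 was called higher in both conditions, at 0.38 with MMC and 0.34 without. TP53BP1 without MMC was also called higher without siIPMK array 1 or control array 3 of the untreated cells, at 0.40 and 0.43. On its siIPMK arrays without MMC it read 9.74, 9.97 and 9.89, all above the control arrays at 9.48, 9.40 and 9.71.

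End resection held some of the clearest falls, in the nucleases that extend it. EXO1, the exonuclease of long-range resection, read 9.64, 9.33 and 9.27 on siIPMK arrays with MMC, against 10.18, 10.32 and 10.55 on control arrays with MMC. Without MMC it read 9.53, 9.02 and 9.09 on siIPMK arrays, against 10.20, 10.33 and 10.31 on control arrays. Experiment 1 was the highest siIPMK array in both conditions and still lay below every control array. EXO1 fell by 0.94 ± 0.15 with MMC, 1.92-fold (limma adjusted p = 0.000413), and by 1.07 ± 0.15 without, 2.09-fold (limma adjusted p = 0.000143). DNA2, the nuclease and helicase of the parallel route, read 7.13, 6.92 and 7.23 on siIPMK arrays with MMC, against 7.64, 7.90 and 8.04 on control arrays with MMC. Its readings without MMC were 7.18, 7.02 and 6.79 on siIPMK arrays, against 7.83, 7.63 and 7.81 on control arrays, with no overlap in either condition. DNA2 fell by 0.77 ± 0.16 with MMC and 0.76 ± 0.16 without (limma adjusted p = 0.00172 and 0.00185). The other probes fell by 1.01 and 1.06 for EXO1 and by 1.19 and 1.01 for DNA2. In the authors' processed values DNA2 changed by -0.43 and -0.41, less than in the values used here.

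Of the complex that begins resection, MRE11 was called lower and NBN higher, each with MMC only in the main model. With the mean of a gene's probes, MRE11 was also called lower and NBN higher without MMC. NBN without MMC was called higher too with experiment as a block, with array weights and without both siIPMK arrays of experiment 1. MRE11, the nuclease that makes the first cut, changed by -0.43 ± 0.16 with MMC (limma adjusted p = 0.0401) and -0.16 ± 0.16 without (limma adjusted p = 0.437). With MMC it read 8.24, 7.96 and 8.11 on siIPMK arrays, against 8.57, 8.58 and 8.43 on control arrays. That call was lost in 6 of 12 fits with an array left out, those without siIPMK array 2 or 3 with MMC, siIPMK array 3 without it or any 1 of the control arrays with MMC, and another MRE11 probe gave -0.66 and -0.57. NBN, which binds MRE11 and recruits the checkpoint kinase ATM, was higher, at 11.75, 11.38 and 11.32 on siIPMK arrays with MMC, against 11.27, 11.03 and 11.09 on control arrays with MMC. The change was 0.36 ± 0.12 (limma adjusted p = 0.0265), and 0.27 ± 0.12 without MMC (limma adjusted p = 0.0772), with no overlap in either condition. Without siIPMK array 1 with MMC the NBN difference with MMC was 0.22 and was not called, and the call was also lost without control array 2 or 3 with MMC. In that fit without siIPMK array 1 with MMC, the NBN difference without MMC stayed at 0.27 and was called higher (limma adjusted p = 0.025).

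Of the 3 subunits of replication protein A, RPA1 was lower in both conditions and RPA3 with MMC only. RPA1, the subunit that makes most of the contacts with single-stranded DNA, read 11.35, 11.31 and 11.27 on siIPMK arrays with MMC, against 11.9, 12 and 12.1 on control arrays with MMC. Without MMC RPA1 stood at 11.44, 11.03 and 11.39 on siIPMK arrays, against 12, 12.07 and 12.13 on control arrays. The groups stood clear of each other, and the change was -0.69 ± 0.11 with MMC and -0.78 ± 0.11 without (limma adjusted p = 0.000422 and 0.000155). Its other probe gave -0.68 and -0.47. RPA2, the subunit phosphorylated on damage, differed by -0.23 ± 0.10 and -0.15 ± 0.10 (limma adjusted p = 0.0819 and 0.257). RPA3, the small subunit, changed by -0.45 ± 0.14 with MMC (limma adjusted p = 0.0176) and differed by -0.16 ± 0.14 without (limma adjusted p = 0.357). The RPA3 call was lost without siIPMK array 2 or 3 with MMC and without control array 1 with MMC.

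**Figure D2:**
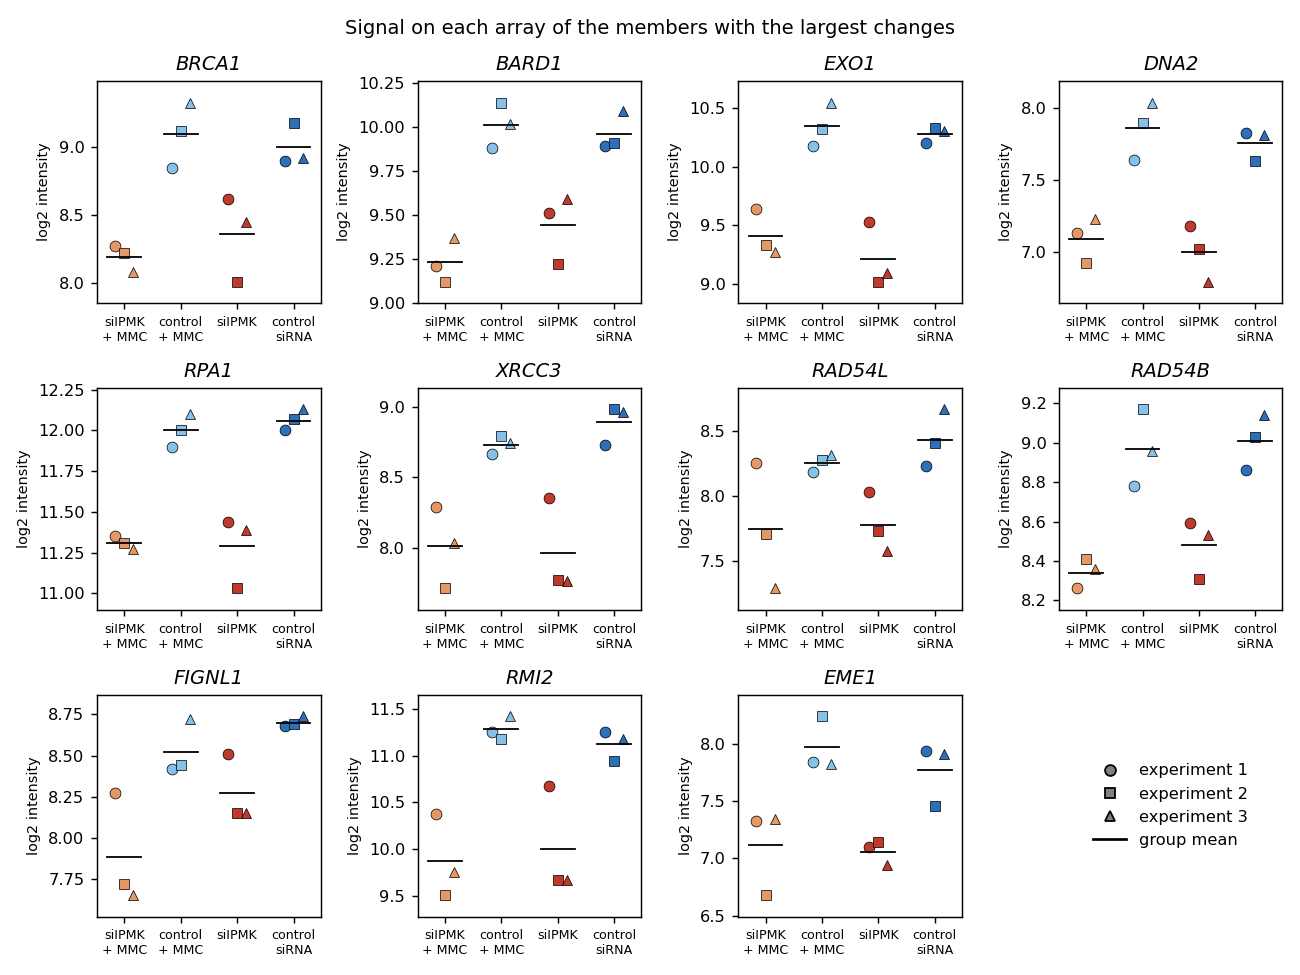
Log2 intensity on each of the 12 arrays (y axis, a separate scale in each panel) of the 11 members with the largest changes whose groups did not overlap, by group; circles, squares and triangles are experiments 1, 2 and 3 and lines are group means. The siIPMK arrays lie below the control arrays of the same treatment in every panel except RAD54L with MMC, where siIPMK experiment 1 at 8.26 exceeds a control array at 8.19.

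Among the paralogs and partners of the strand-exchange recombinase, 5 of the 8 detected were lower in each condition and 0 were higher. Of all genes tested, 20.4% were called lower and 20.8% higher with MMC, and 19.9% lower and 20.4% higher without. XRCC3, a paralog that works with RAD51C, read 8.29, 7.71 and 8.03 on siIPMK arrays with MMC, against 8.66, 8.79 and 8.74 on control arrays with MMC. In untreated cells XRCC3 stood at 8.35, 7.77 and 7.76 on siIPMK arrays, against 8.73, 8.98 and 8.96 on control arrays. The groups did not overlap in either condition, and the change was -0.72 ± 0.17 with MMC and -0.93 ± 0.17 without (limma adjusted p = 0.00484 and 0.00101). RAD51C changed by -0.50 ± 0.16 with MMC (limma adjusted p = 0.0204) and by -0.28 ± 0.16 without (limma adjusted p = 0.172). The other 2 RAD51C probes gave smaller differences, -0.21 and -0.18 with MMC and -0.03 and -0.06 without, and the mean of the 3 probes with MMC, -0.30, was not called. The call was also lost without siIPMK array 2, siIPMK array 3 or control array 2, each with MMC. Without siIPMK array 1 of the untreated cells, RAD51C without MMC was called lower at -0.45. RAD51D and XRCC2, which form a complex with RAD51C, differed by -0.29 ± 0.16 and -0.37 ± 0.20 with MMC and by -0.13 ± 0.16 and -0.26 ± 0.20 without, and neither was called. XRCC2 with MMC was called lower, at -0.63, when siIPMK array 1 with MMC was left out (limma adjusted p = 0.0048).

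Of the motor proteins of strand exchange, RAD54B was called lower in both conditions and RAD54L without MMC only. RAD54B read 8.26, 8.41 and 8.36 on siIPMK arrays with MMC, against 8.78, 9.17 and 8.96 on control arrays with MMC. Without MMC it read 8.59, 8.31 and 8.53 on siIPMK arrays, against 8.86, 9.03 and 9.14 on control arrays. RAD54B changed by -0.63 ± 0.13 and -0.53 ± 0.13 (limma adjusted p = 0.00216 and 0.00583), without overlap. The RAD54B call without MMC was lost with median scaling. RAD54L, its relative that remodels the filament, read 8.26, 7.71 and 7.29 on siIPMK arrays with MMC, against 8.19, 8.28 and 8.32 on control arrays with MMC. Here experiment 1 overlapped the controls, and the difference of -0.51 ± 0.21 was not called (limma adjusted p = 0.0623). It was called lower with arrays of the same siRNA and experiment number as a random block, at -0.51 ± 0.19 (limma adjusted p = 0.0417), and without siIPMK array 1 with MMC, at -0.77 ± 0.18 (limma adjusted p = 0.00259). In untreated cells RAD54L was at 8.03, 7.73 and 7.58 on siIPMK arrays, against 8.23, 8.41 and 8.67 on control arrays, a change of -0.65 ± 0.21 (limma adjusted p = 0.0221). The RAD54L call without MMC was lost with median scaling, and without siIPMK array 2 or 3, or control array 2 or 3, of the untreated cells.

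FIGNL1, an ATPase that takes the recombinase off DNA, read 8.27, 7.72 and 7.65 on siIPMK arrays with MMC, against 8.42, 8.44 and 8.72 on control arrays with MMC. Without MMC FIGNL1 was at 8.51, 8.15 and 8.15 on siIPMK arrays, against 8.68, 8.69 and 8.74 on control arrays. Experiment 1 lay close to the controls in both conditions. The changes were -0.65 ± 0.17 with MMC (limma adjusted p = 0.00686) and -0.44 ± 0.17 without (limma adjusted p = 0.0485), and the second of these was lost in 9 of 12 fits with an array left out, those without siIPMK array 2 with MMC, siIPMK array 2 or 3 without it, or any 1 of the 6 control arrays. RAD51AP1, which stimulates strand invasion, changed by -0.62 ± 0.16 and -0.44 ± 0.16 (limma adjusted p = 0.00814 and 0.0436), and the call without MMC was lost in 8 of the 12 fits, those without siIPMK array 2 or 3 of the untreated cells or any 1 of the 6 control arrays.

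**Figure D3:**
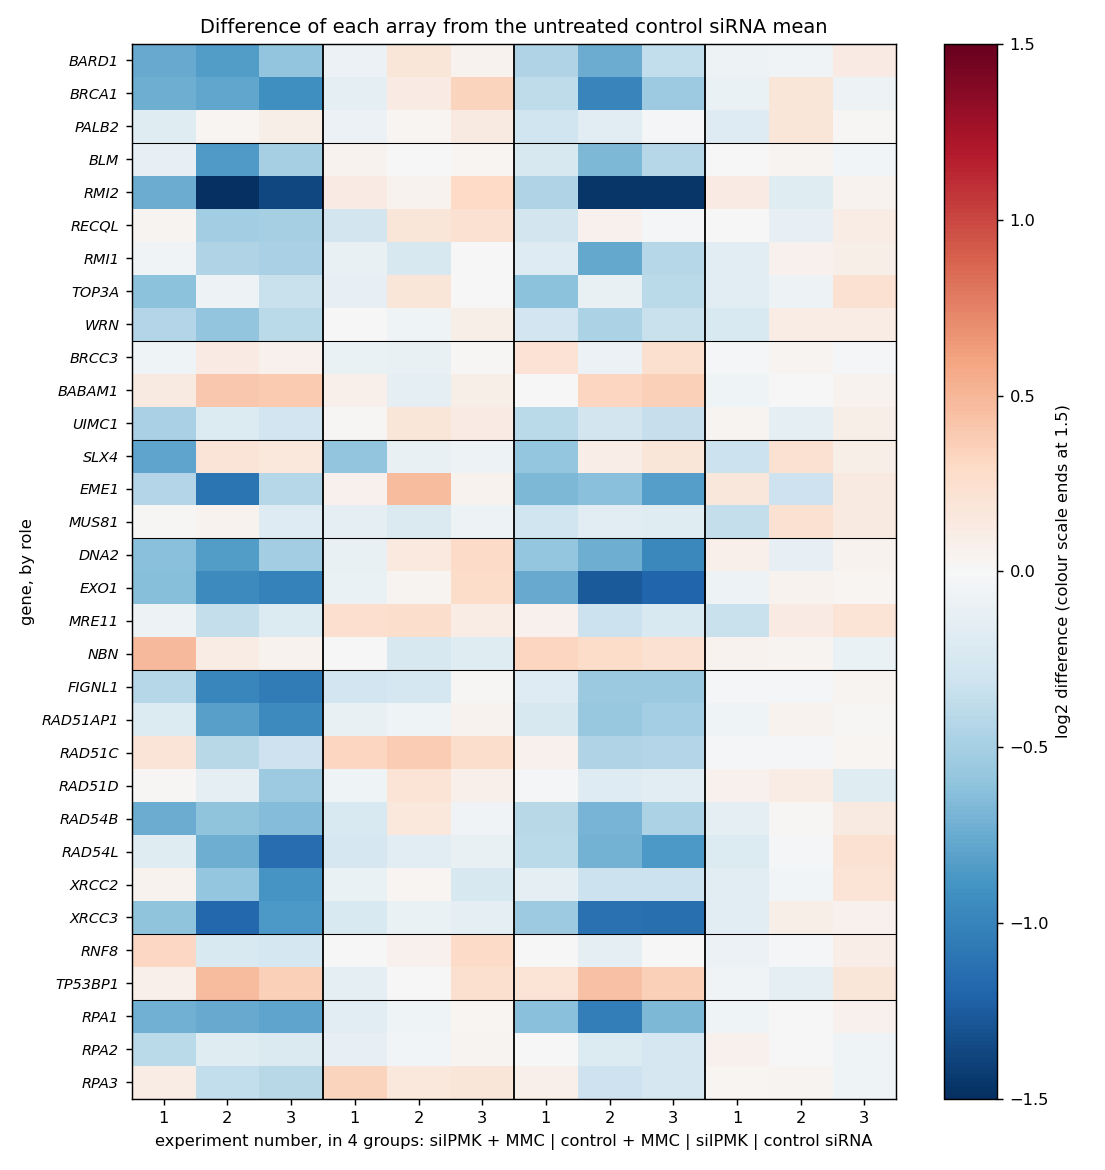
Difference of each array from the mean of the untreated control siRNA arrays (log2, colour, blue lower and red higher, saturated at 1.5) for the 32 members in rows by role, with columns of experiments 1 to 3 in each of the 4 groups. The siIPMK columns of experiment 1 are paler than those of experiments 2 and 3 for many of the lower members, among them RMI2, XRCC3 and BLM.

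Of the helicases and dissolution factors, RMI2 changed most of all 32 members in both conditions. RMI2, the small subunit of the BLM dissolvasome, read 10.38, 9.51 and 9.76 on siIPMK arrays with MMC, against 11.25, 11.18 and 11.42 on control arrays with MMC. In untreated cells RMI2 stood at 10.67, 9.67 and 9.67 on siIPMK arrays, against 11.25, 10.94 and 11.18 on control arrays. Experiment 1 was the highest siIPMK array in both conditions and lay below every control array. RMI2 fell by 1.40 ± 0.25 with MMC, 2.64-fold (limma adjusted p = 0.000726), and by 1.12 ± 0.25 without, 2.17-fold (limma adjusted p = 0.00303). BLM, the helicase whose loss causes Bloom syndrome, changed by -0.52 ± 0.16 with MMC and -0.45 ± 0.16 without (limma adjusted p = 0.0207 and 0.0407). The BLM call with MMC was lost without siIPMK array 2 or 3 or control array 1 or 3 with MMC, and the call without MMC in the same 8 fits as that of RAD51AP1. Without siIPMK array 2 with MMC the BLM change with MMC was -0.33. WRN, a RecQ helicase with an exonuclease, changed by -0.48 ± 0.12 and -0.37 ± 0.12 (limma adjusted p = 0.00642 and 0.0274). The WRN call without MMC was lost without siIPMK array 2 or 3 or control array 2 or 3 of the untreated cells.

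RMI1, the scaffold of the same dissolvasome, was lower without MMC at -0.47 ± 0.15 (limma adjusted p = 0.0267) and differed by -0.21 ± 0.15 with it (limma adjusted p = 0.293). Leaving out siIPMK array 2 or 3, or control array 2 or 3, of the untreated cells ended the RMI1 call. TOP3A, the topoisomerase of the complex, differed by -0.36 ± 0.18 and -0.38 ± 0.18 (limma adjusted p = 0.121 and 0.104), and another, dimmer probe gave 0.10 and 0.02. RECQL, another RecQ helicase, differed by -0.37 ± 0.18 with MMC and -0.08 ± 0.18 without. RECQL with MMC was called lower without siIPMK array 1 with MMC, at -0.56, without control array 1 with MMC, at -0.53, with the mean of its probes, at -0.38, and with array weights, at -0.60.

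EME1 was the only detected Holliday junction nuclease gene that was called. It read 7.33, 6.68 and 7.34 on siIPMK arrays with MMC, against 7.84, 8.24 and 7.82 on control arrays with MMC. Without MMC EME1 was at 7.10, 7.14 and 6.94 on siIPMK arrays, against 7.94, 7.46 and 7.91 on control arrays. The groups did not overlap, and EME1 changed by -0.85 ± 0.20 and -0.71 ± 0.20 (limma adjusted p = 0.00409 and 0.0116). With median scaling the EME1 call without MMC was lost (limma adjusted p = 0.0543). In the authors' processed values the changes were -0.47 and -0.39. MUS81, the catalytic partner of EME1, differed by 0.10 ± 0.15 with MMC and -0.22 ± 0.15 without, where it was called lower at -0.40 when control array 1 was left out. SLX4, which gathers these nucleases, differed by 0.11 ± 0.26 and -0.10 ± 0.26.

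The siIPMK arrays of experiment 1 moved with these results. Of the 17 members called lower with MMC, experiment 1 was the highest siIPMK array for 11, and of the 16 called lower without MMC for 13. The median differences of those members from the mean of the control arrays of the same treatment were -0.59, -0.80 and -0.64 in experiments 1, 2 and 3 with MMC, and -0.41, -0.72 and -0.56 without. Leaving out both siIPMK arrays of experiment 1 gave 23 members called lower with MMC and 19 without, and 3 called higher in each condition. In that fit 25.8% of all genes were called lower and 27.6% higher with MMC, and 26.6% lower and 27.1% higher without, so that the shares over all genes were larger too. SLX4 with MMC was among those called higher there, at 0.43. That fit kept the direction of every member called with all 12 arrays.

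No member was called with MMC against no treatment in the fit without pairs. Under siIPMK, 0 of the 32 members were called in either direction, where 0.351% of all genes were called higher and 0.0106% lower. There 1 member and 531 of the 9409 genes tested had an unadjusted p under 0.05. Under control siRNA 0 were called, where 1.96% of all genes were called higher and 0.106% lower. There 0 members and 1050 of all genes had an unadjusted p under 0.05. The MMC arrays lay clear of the untreated arrays for 0 members under siIPMK, where 5.52% of all genes did so upward and 4.34% downward, and for 2 members upward and 0 downward under control siRNA, where 11.8% and 9.67% did so. The members' median change with MMC was -0.05 under siIPMK and 0.02 under control siRNA. The list of p53 targets, used as a check that MMC acted, had 6 of 16 detected genes higher under siIPMK (median 0.57) and 13 of 16 under control siRNA (median 1.12). From the untreated control mean, the median of these genes was already 0.30, 0.73 and 0.72 on siIPMK arrays without MMC. With MMC it was 1.22, 1.39 and 1.12 on siIPMK arrays, against 1.06, 1.19 and 1.10 on control arrays. The smaller change under siIPMK thus started from a higher untreated level. Arrays with and without MMC that share an siRNA and an experiment number deviated together, and with those pairs as a fixed block 1 member was called under each siRNA. With the same pairs as a random block 0 members were called under either siRNA, where 1.46% of all genes were called higher and 0.372% lower under siIPMK and 5.04% higher and 2.38% lower under control siRNA. The calls of the fixed block were FIGNL1 under siIPMK, at -0.39 ± 0.11 (limma adjusted p = 0.049), where 0.999% of all genes were called lower, and RAD51C under control siRNA, at 0.32 ± 0.08 (limma adjusted p = 0.00791), where 6.17% were called higher. RAD51C read 11.91, 11.98 and 11.86 on control arrays with MMC, against 11.58, 11.58 and 11.62 on control arrays without it.

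The remaining members with the lowest p-values for MMC showed small differences. Under siIPMK, BARD1 differed by -0.21 ± 0.13 and RECQL by -0.25 ± 0.18, and under control siRNA, RPA3 differed by 0.23 ± 0.14 and MRE11 by 0.22 ± 0.16. BRCA1 differed by -0.17 ± 0.16 under siIPMK and 0.10 ± 0.16 under control siRNA, with 95% intervals of -0.52 to 0.19 and -0.26 to 0.45. The change with MMC under siIPMK minus that under control siRNA passed for 0 members and 0% of all genes (limma; 0 members and 327 genes had an unadjusted p under 0.05). Its lowest p-values among the members were for MUS81, at 0.32 ± 0.21, RPA3, at -0.28 ± 0.19, and BARD1, at -0.26 ± 0.18. For the members called in 1 depletion condition only, this difference was -0.27 ± 0.22 for MRE11, -0.28 ± 0.19 for RPA3, -0.22 ± 0.22 for RAD51C, 0.14 ± 0.29 for RAD54L and 0.26 ± 0.22 for RMI1.

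**Figure D4:**
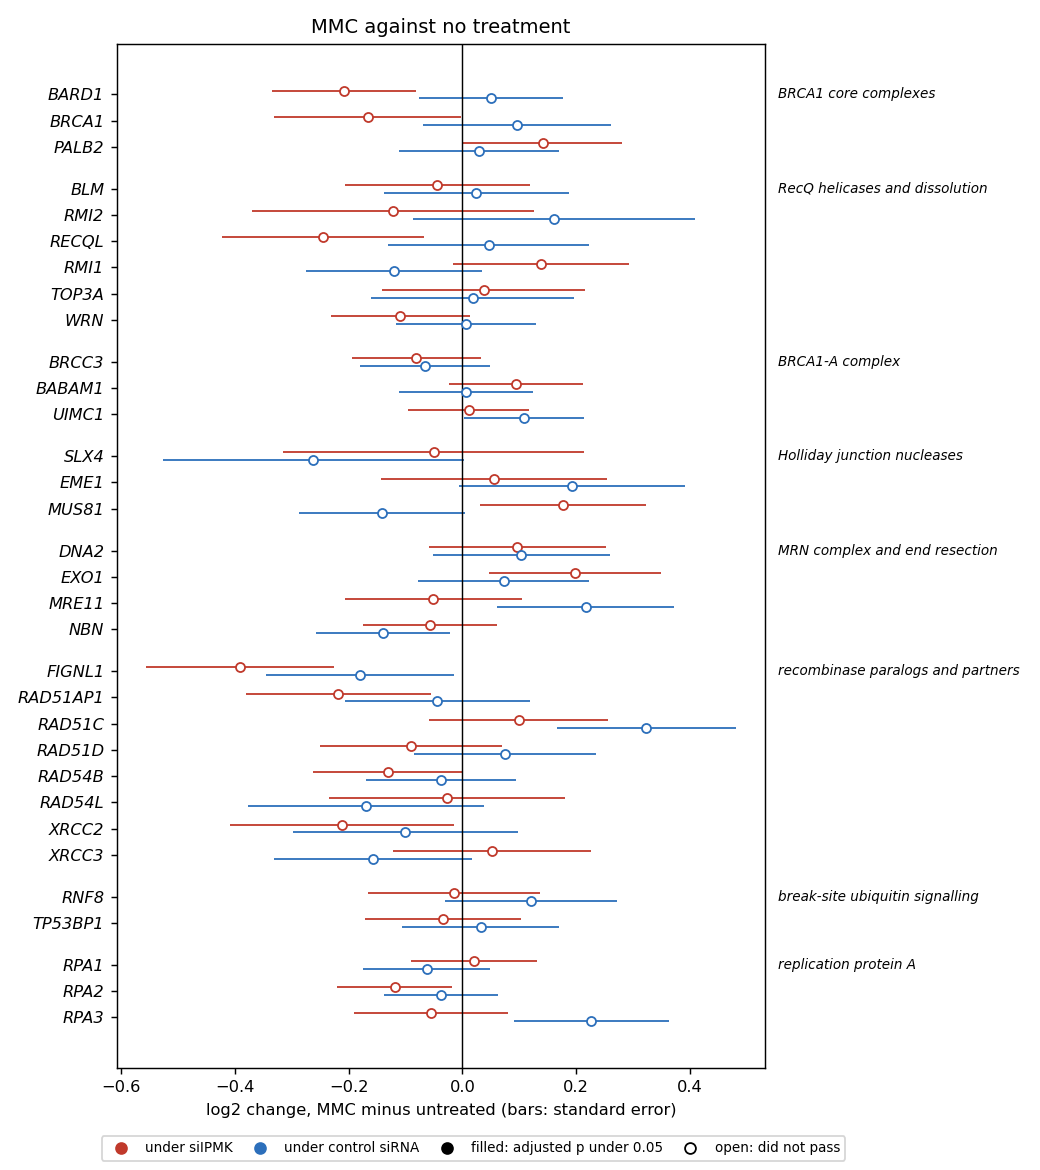
Change of each of the 32 members with MMC against no treatment (log2, x axis), under siIPMK above and under control siRNA below in each pair, with bars for standard errors. All points are open because 0 members passed without the block, and they lie between -0.39 and 0.32.

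Other genes of recombination were set beside the members, from a list of 54 of which 39 were detected. With MMC 16 of the 39 were lower and 4 higher with siIPMK, with a median of -0.31, where 20.4% of all genes were lower and 20.8% higher. Without MMC 17 of the 39 were lower and 4 higher, with a median of -0.30, where 19.9% of all genes were lower and 20.4% higher. With median scaling the counts among the 39 were 9 lower and 5 higher with MMC, and 8 lower and 7 higher without. In that fit 11.6% of all genes were lower and 26.4% higher with MMC, and 11.3% lower and 26% higher without. SEM1, the small acidic protein that binds BRCA2, read 12.56, 11.35 and 11.51 on siIPMK arrays with MMC, against 14.09, 14.05 and 14.21 on control arrays with MMC, and changed by -2.31 ± 0.31 with MMC and -2.25 ± 0.31 without (limma adjusted p = 0.000148 and 0.00013). PARPBP, which restrains recombination, changed by -1.19 ± 0.23 and -1.13 ± 0.23, and HROB, which loads a helicase behind the invading strand, by -1.11 ± 0.11 and -0.91 ± 0.11. SMC6, a subunit of a chromosome-holding complex, is counted among the lower genes in both conditions. It was detected on all control arrays and on 1 of 3 siIPMK arrays in each condition. Its siIPMK arrays alone would not have passed the filter, so no p-value is given. SHLD2, a shieldin subunit that acts with TP53BP1, rose by 0.77 ± 0.12 and 0.71 ± 0.12, and SWI5, a partner of the recombinase, by 0.58 ± 0.10 and 0.74 ± 0.10. RNF169, which binds ubiquitin marks at breaks, is counted among the higher genes in both conditions. It was detected on 0 control arrays and so passed the filter through siIPMK arrays alone. For that reason neither a size nor a p-value is given.

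Genes of end joining and of replication were counted in the same way. Of all genes tested, 20.4% were called lower and 20.8% higher with MMC, and 19.9% lower and 20.4% higher without. Of 9 detected end-joining genes 2 were lower and 0 higher with MMC, and 3 lower and 1 higher without. Of 40 detected replication fork and licensing genes 34 were lower and 0 higher with MMC, with a median of -0.78, and 31 lower and 0 higher without, with a median of -0.68. The replication genes moved with the recombination genes. On its brighter probe CDKN1A was 1.85-fold higher with siIPMK with MMC and 3.79-fold higher without. Its dimmer probe also read higher on every siIPMK array than on any control array of the same treatment. The part of the replication genes and of CDKN1A in the members' changes was not tested. The epithelial markers were higher with siIPMK for 4 of the 5 detected in both conditions, with medians of 0.63 and 0.67. Per array, the median difference of the members from the untreated control mean was -0.19, -0.49 and -0.46 on siIPMK arrays with MMC, against -0.10, 0.03 and 0.05 on control arrays with MMC. Without MMC it was -0.28, -0.39 and -0.36 on siIPMK arrays, against -0.07, 0.01 and 0.07 on control arrays, so that no siIPMK array reached a control array.

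**Figure D5:**
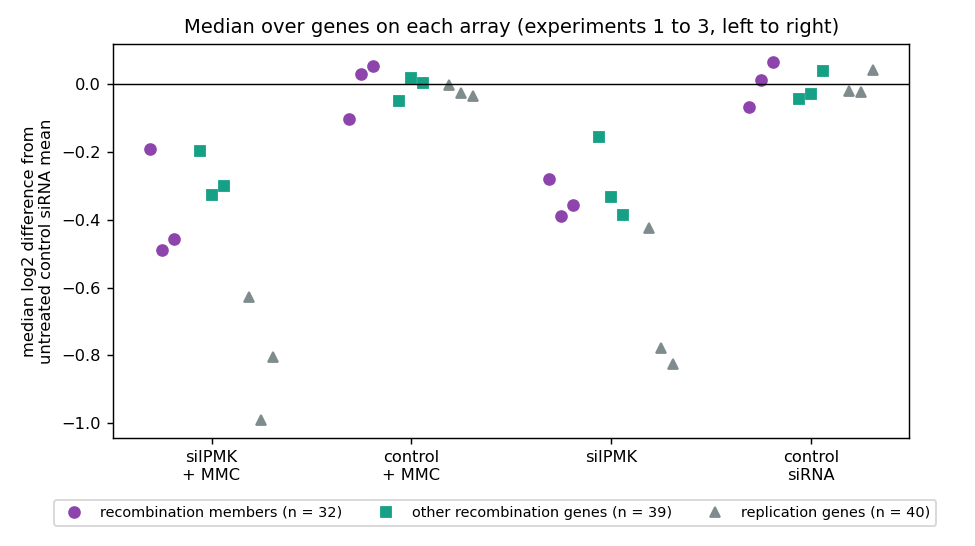
Median over genes of the log2 difference from the untreated control siRNA mean on each array (y axis), for the 32 members, 39 other recombination genes and 40 replication genes, with experiments 1 to 3 from left to right in each group. The siIPMK arrays lie below the control arrays for all 3 lists, and on siIPMK arrays the replication genes lie lowest, between -0.99 and -0.42.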

How the data were processed

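The 12 bead arrays were analysed from the deposited mean intensity of each of 48802 probes, with its detection p-value. The files also hold, per the file headers, a bead standard error (a signal) and a bead count per probe, which were used to describe the arrays. A deposited table of the authors' log2-like values for 14853 probes, whose transform is not given in the sources used here, served as an alternative; the submitters' processing notes name lumi, with no role.

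Intensities were processed in R 4.3.3 with neqc of limma 3.58.1 (background from the detection p-values, offset 16, quantile normalization, log2). A probe was kept when 3 or more arrays had its detection p below 0.01. They were named from the platform annotation, with symbols updated through Entrez identifiers, and the probe of highest mean signal was used for each of 9409 genes. Because the probe was picked on mean signal, other probes of a member can differ from it, and they are given for some members. A model of 4 group means was fitted to all arrays with moderated variances that follow signal, and p-values were adjusted over all genes by Benjamini-Hochberg. It was tested on simulated arrays with independent noise. Those lack the shared deviations of paired arrays and the many changed genes seen here, so the simulation does not test the model under these conditions. Arrays have no read depth, and their number limits precision.

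Members, roles and gene lists were chosen with earlier results of these data known. Members were named with a value per array where they were among the 10 largest changes without overlap in either depletion comparison, and the 3 lowest p-values were named in each MMC comparison; from the other recombination genes, the 3 largest falls and rises in each condition. Experiment numbers come from the titles. Deviations from the group means correlated between arrays with and without MMC of the same number, at 0.70, 0.54 and 0.35 under siIPMK and 0.49, 0.19 and 0.42 under control siRNA. Under siIPMK, untreated array 3 correlated more, at 0.42, with an MMC array of another number. The main model used no pairs, and those arrays were taken as pairs in alternative runs only. Between siRNAs they did not all exceed 0.1 (0.06, 0.20 and -0.02 with MMC, 0.09, 0.12 and 0.13 without). Alternatives changed the background correction, scaling, filter, probe choice, array weights, blocks and the arrays left out. The files give no chip numbers, so a chip block was not run.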

Additional observations from a re-analysis of the deposited data

How the results depend on the processing

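No alternative run turned the direction of a called result. Without MMC, the 0 members called higher with siIPMK became 1 with median scaling (26% of all genes higher) and with the mean of a gene's probes, 2 with experiment as a replicate block (23.9%), 3 with array weights (30.3%), 3 without both siIPMK arrays of experiment 1 (27.1%), 2 without those arrays and with median scaling (32.3%), and 0 to 2 when each array was left out in turn. Those counts stay below the shares over all genes. The 16 called lower became 5 with median scaling (11.3% of all genes lower) and 9 to 17 with each array left out. With MMC, the 2 called higher became 1 with the mean of probes and 0 to 2 with each array left out, and the 17 called lower became 10 with median scaling (11.6%) and 13 to 21 with each array left out. EXO1, DNA2, RPA1, XRCC3 and RMI2 were called lower under every alternative run without MMC, and those 5 with BRCA1, BARD1, RAD54B and EME1, 9 in all, under every one with MMC. In the MMC comparison under control siRNA, 1 member was called higher with array weights, without both siIPMK arrays of experiment 1 and with the replicate block of paired arrays, and under siIPMK 1 was called lower with that block. As a random replicate block, with a correlation of 0.47, the pairs changed no member count by over 1.5 times and, among the depletion calls, only that of RAD54L with MMC, which was gained. The fixed block of paired arrays, and median scaling joined with leaving out experiment 1 of siIPMK, were chosen after seeing the data.

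Across single members and comparisons, 3615 alternative values kept their side of the threshold, 99 lost a call and 62 gained it. The 3615 include the MMC comparisons and their difference, where 0 members were called in the main fit and no call was there to lose. All 99 losses fell among the depletion calls, 16 lower without MMC, and 17 lower and 2 higher with MMC. Each of those calls was read under 23 alternatives. The 3615 therefore do not measure how stable the depletion calls were. The causes of the lost and gained calls were not tested. Quantile normalization sets equal distributions on all arrays, and median scaling does not, so the count of falls depends on that choice. With 3 arrays a group, a p that misses the threshold does not show equal levels, and intensities do not rank different genes.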
